A study of Mus musculus with 4 samples.

Results

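Transcripts of 39 listed components of the Wnt pathway were followed in mouse LSK cells, the lineage-negative, c-Kit and Sca1 positive fraction of bone marrow that holds stem cells and early progenitors. All probe sets annotated to a single gene on the list were taken, which gave 91 probe sets for 38 genes of the 18193 genes and 45037 probe sets measured; Tcf7 was not analysed here. By the level of c-Myc-eGFP, the c-Myc protein joined to a fluorescent tag, the LSK cells had been sorted into a Hi and a Lo group, with 2 Affymetrix expression arrays in each. Cells of both groups came from femoral marrow of mice given as WT B6/129. The age of the animals, any pooling, and the allele that encodes the tagged protein are not given in the sources used here. Nothing in the labels says that the replicates came from separate mice, so the p-values below measure the spread between these arrays, which may be technical. The comparison asks which Wnt components differ in transcript level between LSK cells with much and with little c-Myc.

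In the canonical Wnt pathway a secreted Wnt ligand binds a Frizzled receptor and its co-receptor Lrp5 or Lrp6 and, through Dishevelled, stops a complex of Axin, Apc and the kinases Gsk3 and Csnk1a1 from marking beta-catenin for degradation. Beta-catenin then enters the nucleus, where it joins TCF/LEF factors and turns them from repression to activation. Frizzled receptors also serve branches without beta-catenin, in planar cell polarity and calcium signalling. In blood formation the dose of Wnt signal is known to matter for stem cell maintenance and for T cell development.

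At an unadjusted p under 0.05 by limma, 6 of the 9 Frizzled genes were lower in Hi than in Lo. These were Fzd1, Fzd3, Fzd4, Fzd5, Fzd6 and Fzd8, lower by 1.53-fold for Fzd5 to 4.79-fold for Fzd3. By that rule 11% of all genes were lower and 9.25% higher. The secreted inhibitor gene Sfrp1 was 9.79-fold lower, with 1 of its 2 Hi values not well above background. Jup, Bcl9l, Tcf7l1 and Apc were also lower, by 1.44-fold to 2.36-fold. On their brightest probe sets, beta-catenin itself, the Dishevelled genes and the Groucho corepressor genes had differences from -0.57 to 0.32 on the log2 scale.

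None of these differences passed after adjustment: limma called 0 of the 38 genes, and 0% of all probe sets, at a Benjamini-Hochberg adjusted p under 0.05. The counts that follow use an unadjusted p under 0.05 and the probe set with the highest mean of a gene, here called its brightest. By that rule 11 of 38 genes were lower and 0 higher, against 11% of all genes lower and 9.25% higher. The 11 were 6 without Hi replicate 1, against 6.18% of all genes lower, and also 6 without Hi replicate 2, against 6.51%. On the arrays themselves, both Hi values lay below both Lo values for 19 of the 38 genes, against 25.4% of all genes, and above both for 4, against 30%. After a shift of the arrays to one median these counts were 12, against 19.7% of all genes, and 6, against 40.8%. Of the 38 genes 7 were at least 2-fold lower, against 5.78% of all genes, and 1 (Axin2, with a dim value in Lo) was at least 2-fold higher, against 3.51%. The median log2 difference was -0.13 over the 38 genes and 0.03 over all genes. Since the list was drawn up with earlier results of these arrays known, these shares describe it and test nothing.

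On each array the brightest of 27 bacterial control probe sets that showed no added transcript set a dim limit of 4.74 to 4.87 (log2), and a value at or under it is not well above background. Of the 38 genes 34 exceeded it on at least 1 array, and the other 4 were Wnt5a, Wnt10b, Dkk1 and Sfrp2. All intensities below are on the log2 scale and belong to the brightest probe set unless another is named. Levels of different probe sets cannot be set against each other, since each probe set has its own affinity.

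**Figure D1:**
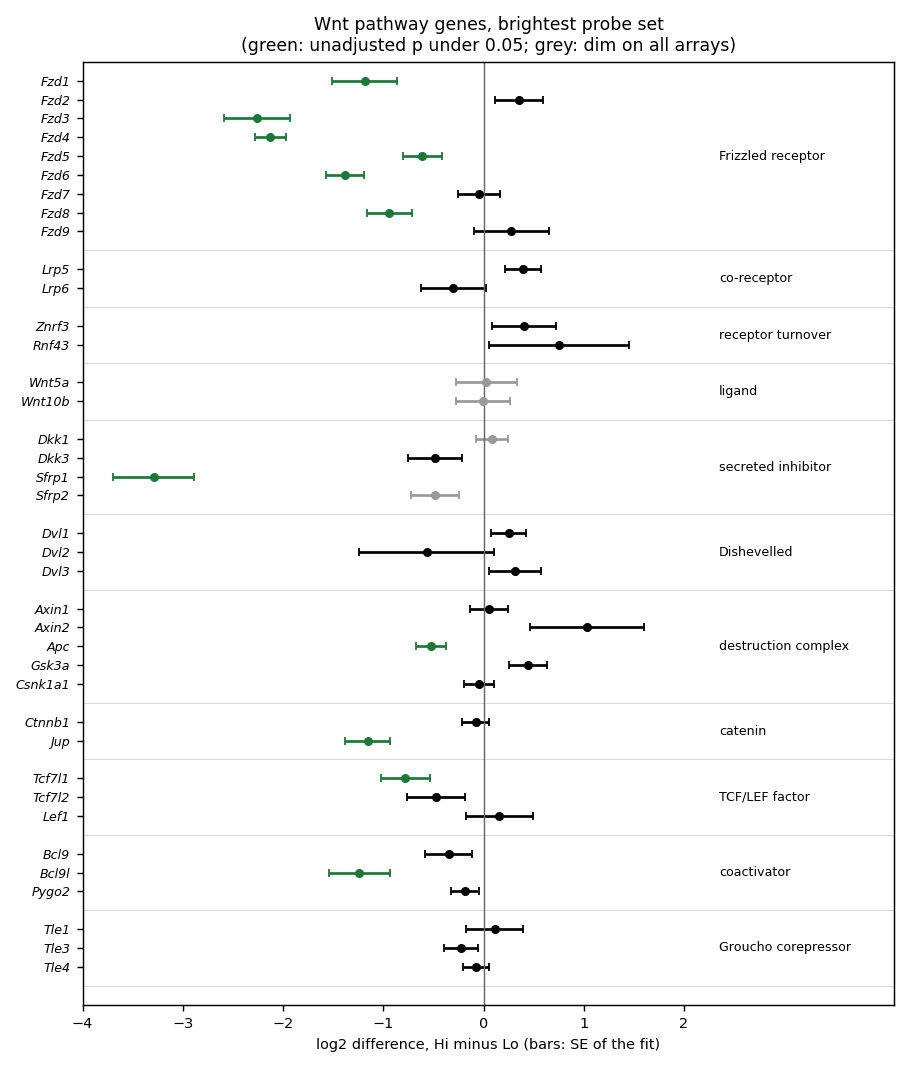
Log2 difference, Hi minus Lo, of the brightest probe set of each of the 38 Wnt pathway genes, grouped by role, with the SE of the limma fit as bars. Green genes had an unadjusted p under 0.05 and all 11 lie left of 0; the 4 grey genes were dim on all 4 arrays.

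Among the Frizzled receptors, Fzd4, also known as the receptor for norrin in the retina, had the smallest p of the whole list. It lies at chromosome 7, 89404366 to 89410110 in GRCm38.p6, and its probe set is 1434756_at. Its log2 intensities were 5.86 and 5.91 in Hi, against 7.90 and 8.13 in Lo. The pairs of arrays were close and the groups did not overlap. The difference was -2.13 ± 0.15 (SE), a level 4.37-fold lower in Hi, with an adjusted p of 0.0839 by limma. A second probe set, 1419301_at, had 3.95 and 4.45 in Hi, at or under the dim limit, against 5.48 and 5.66 in Lo, so it was at least 1.63-fold lower. The third was dim on all 4 arrays.

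Fzd3, known in planar polarity and axon guidance (chromosome 14, 65192441 to 65262463), had 5.43 and 5.77 in Hi, against 7.48 and 8.25 in Lo. Both Hi values lay well below both Lo values, and the difference of -2.26 was the largest of the family, with an adjusted p of 0.102 by limma. The probe sets of Fzd3 did not behave alike. Besides 1434788_at, only 1438101_at was clearly lower, by at least 1.59-fold, while the remaining 4 had log2 differences between -0.31 and 0.18.

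Fzd6, best known for hair patterning and planar polarity (chromosome 15, 39006149 to 39038192), had 8.24 and 8.60 in Hi, against 9.71 and 9.89 in Lo. Its difference was -1.38 ± 0.19 (SE), 2.61-fold lower in Hi, with an adjusted p of 0.0996 by limma. Its second probe set above the dim limit, 1448662_at, went the other way by 0.18 with overlapping groups, 6.61 and 6.10 in Hi, against 5.82 and 6.53 in Lo. With the mean of all its probe sets Fzd6 differed by -0.51.

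Fzd8 had 5.81 and 5.88 in Hi, against 6.53 and 7.04 in Lo, and Fzd1 had 5.26 and 5.26 in Hi, against 6.03 and 6.86 in Lo. In both genes the Hi arrays agreed closely and the Lo arrays spread more widely. The log2 differences were -0.94 ± 0.22 for Fzd8 and -1.18 ± 0.32 for Fzd1 (SE, 2 arrays a group), with adjusted p of 0.169 and 0.199 by limma. Without Lo replicate 2 that of Fzd1 was -0.76. The other probe set of Fzd8 was also lower, by at least 1.37-fold, and that of Fzd1 was dim throughout.

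Fzd5, a canonical receptor needed in the gut and in blood vessels, had 7.46 and 7.23 in Hi, against 8.12 and 7.78 in Lo. The groups did not overlap, but this was the smallest difference of the 6, at -0.61 ± 0.19 (SE) with an adjusted p of 0.241 by limma. It no longer had an unadjusted p under 0.05 in 8 of the 14 alternatives. These were quantile normalization, cyclic loess, the shift of the arrays to one median, a prior variance that follows intensity, the ordinary test, and the fits without Hi replicate 1, Hi replicate 2 or Lo replicate 1. With 1 array left out the difference ran from -0.78 to -0.44.

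The remaining Frizzled genes did not separate the groups. Fzd7 had 9.95 and 10.15 in Hi, against 10.30 and 9.89 in Lo. Its difference was -0.05, or 0.05 after the arrays were shifted to one median, and the 95% interval ran from -0.62 to 0.53. Fzd9, whose loss in mice is known to disturb B cell development, had 6.49 and 6.14 in Hi, against 6.50 and 5.57 in Lo. Fzd2 had 4.85 and 5.40 in Hi, against 4.68 and 4.86 in Lo, close to the dim limit. The intervals of the difference ran from -0.76 to 1.32 for Fzd9 and from -0.32 to 1.02 for Fzd2. A difference of 2-fold upward was therefore not outside the interval of either gene, while a 2-fold change in either direction lay outside that of Fzd7.

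**Figure D2:**
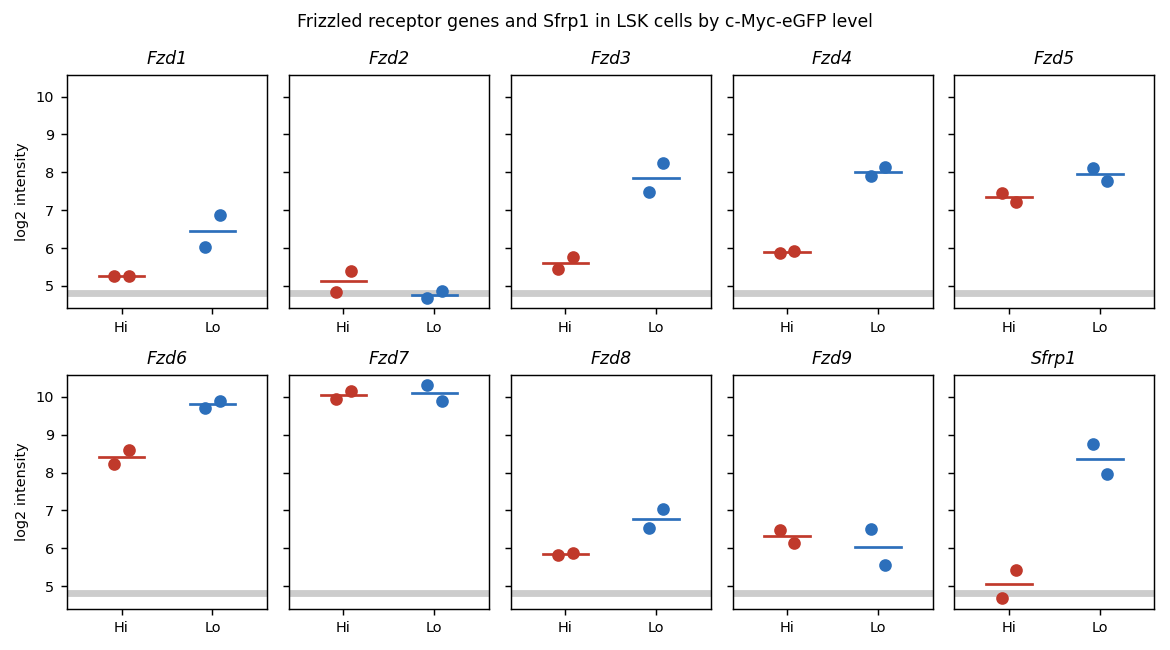
Log2 intensity of the brightest probe set of the 9 Frizzled genes and Sfrp1 on each array, Hi in red and Lo in blue, with the mean of each group as a line and the range of the dim limit as a grey band. In Fzd1, Fzd3, Fzd4, Fzd5, Fzd6, Fzd8 and Sfrp1 both Hi points lie below both Lo points, while Fzd2, Fzd7 and Fzd9 overlap.

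The start regions of 5 of the 9 Frizzled genes are shown to set the letters at the starts of genes that were lower in Hi (Fzd1, Fzd4 and Fzd5) beside those of genes that did not separate the groups (Fzd7 and Fzd9). They are the Frizzled genes with a window in the RefSeq table used; those of Fzd2, Fzd3, Fzd6, Fzd8 and Sfrp1 were not analysed here. Each is the RefSeq window from 250 bases before to 50 after the annotated start in GRCm38.p6, 5′ to 3′ on the strand of the gene. Capitals mark CACGTG, the E-box known to bind Myc with Max, and CTTTGA or its reverse complement, the core known to bind TCF/LEF factors; both strands were searched and the 2 motifs cannot overlap.
Fzd1, chr5:4758167-4758466, minus strand: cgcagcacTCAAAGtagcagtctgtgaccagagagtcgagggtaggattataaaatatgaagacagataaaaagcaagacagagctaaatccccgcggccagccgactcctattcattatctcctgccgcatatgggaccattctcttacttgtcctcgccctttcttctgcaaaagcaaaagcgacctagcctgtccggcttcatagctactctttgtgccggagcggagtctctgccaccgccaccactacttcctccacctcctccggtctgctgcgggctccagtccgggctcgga
Fzd4, chr7:89404116-89404415, plus strand: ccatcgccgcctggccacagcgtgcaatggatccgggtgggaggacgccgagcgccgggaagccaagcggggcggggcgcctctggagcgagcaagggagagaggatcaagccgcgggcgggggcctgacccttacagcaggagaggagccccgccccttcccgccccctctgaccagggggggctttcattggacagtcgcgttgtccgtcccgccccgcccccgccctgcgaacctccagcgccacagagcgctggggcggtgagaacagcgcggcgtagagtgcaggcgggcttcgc
Fzd5, chr1:64737701-64738000, minus strand: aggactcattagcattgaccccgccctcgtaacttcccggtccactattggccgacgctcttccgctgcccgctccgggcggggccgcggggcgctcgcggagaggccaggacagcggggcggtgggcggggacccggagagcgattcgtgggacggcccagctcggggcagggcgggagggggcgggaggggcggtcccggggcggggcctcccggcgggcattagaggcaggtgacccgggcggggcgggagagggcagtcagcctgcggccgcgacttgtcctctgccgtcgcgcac
Fzd7, chr1:59481897-59482196, plus strand: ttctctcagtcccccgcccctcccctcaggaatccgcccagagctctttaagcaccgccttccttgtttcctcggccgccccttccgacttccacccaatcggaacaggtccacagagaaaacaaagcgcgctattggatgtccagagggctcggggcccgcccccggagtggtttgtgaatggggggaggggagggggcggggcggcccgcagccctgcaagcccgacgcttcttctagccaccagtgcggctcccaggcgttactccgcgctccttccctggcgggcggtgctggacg
Fzd9, chr5:135250998-135251297, minus strand: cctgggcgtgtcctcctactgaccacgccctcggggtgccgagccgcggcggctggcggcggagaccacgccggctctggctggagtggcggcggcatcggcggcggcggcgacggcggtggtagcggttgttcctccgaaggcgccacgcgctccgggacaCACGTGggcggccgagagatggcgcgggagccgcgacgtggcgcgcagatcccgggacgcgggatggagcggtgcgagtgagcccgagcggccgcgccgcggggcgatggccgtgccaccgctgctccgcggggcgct
The windows of Fzd4 and Fzd5 held neither motif, and nor did that of Fzd7. Fzd1 held 1 TCF/LEF core and Fzd9 held 1 E-box. Among 32851 such RefSeq windows, 7.15% held the E-box and 16% the TCF/LEF core. The share of G and C was 72.7% for Fzd4 and 75.7% for Fzd5, against 66.7% for Fzd7 and 78% for Fzd9, with 54% for Fzd1. All 5 windows were richer in G and C than the median of all windows, at 52.7%. These are matches of letters and not binding sites.

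The co-receptor genes did not follow the Frizzled genes. Lrp5 had 7.84 and 7.56 in Hi, against 7.20 and 7.41 in Lo, with the groups apart by a small margin, a difference of 0.40 ± 0.18 (SE) and an adjusted p of 0.356 by limma. Lrp6 differed by -0.30, and its value in Lo rested on 1 array: it had 10.89 and 10.97 in Hi, against 11.65 and 10.81 in Lo, and without Lo replicate 1 the difference was 0.12. Znrf3 and Rnf43 encode ubiquitin ligases that remove Frizzled receptors from the cell surface. Znrf3 had 9.09 and 9.32 in Hi, against 9.20 and 8.40 in Lo, and Rnf43 lay around the dim limit. The groups overlapped for both genes.

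The ligand genes on the list were not well above background. Wnt5a, which acts mostly in the branches without beta-catenin, had 3.67 and 3.57 in Hi, against 3.98 and 3.21 in Lo. Wnt10b, a canonical ligand, had 4.20 and 4.23 in Hi, against 3.89 and 4.55 in Lo. Every one of these values, and the other probe sets of Wnt5a, stood at or under the dim limit, so no fold is given.

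Sfrp1 encodes a secreted protein with a Frizzled-like domain that binds Wnt ligands and is known from marrow stroma as a regulator of stem cell quiescence (chromosome 8, 23411383 to 23449632). It had 4.69 and 5.44 in Hi, against 8.75 and 7.96 in Lo. This was the largest difference of all 38 genes, with the first Hi array under the dim limit and the second above it. The difference was -3.29 ± 0.40 (SE), 9.79-fold lower in Hi, with an adjusted p of 0.0949 by limma. In all 5 probe sets of Sfrp1 both Hi values lay below both Lo values. The second brightest had 4.71 and 4.98 in Hi, the first under the dim limit, against 7.61 and 6.08 in Lo. The other 3 were dim on both Hi arrays, and 2 of them on all 4, so no fold is given for them. With the mean of all 5, dim values included, the difference was -1.85.

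The other secreted inhibitors showed little signal. Dkk3, a distant member of the Dickkopf family, had 4.64 and 5.30 in Hi, against 5.43 and 5.48 in Lo, and differed by -0.48 ± 0.27 (SE) with an adjusted p of 0.431 by limma. The first Hi value was dim, and without it the difference was -0.16. Its second probe set, dim on both Hi arrays, was at least 1.41-fold lower in Hi with the groups apart. Sfrp2 had 3.69 and 3.22 in Hi, against 3.77 and 4.11 in Lo, all under the dim limit. Dkk1, which blocks Lrp5 and Lrp6, was dim on all 4 arrays as well.

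Because Sfrp1 and several Frizzled genes are also made by non-blood cells, markers of marrow stroma and endothelium were read on the same arrays. Of 9 measured stroma markers 0 were higher and 1 (Col1a2) was lower in Hi at an unadjusted p under 0.05. Of all genes 9.25% were higher and 11% lower. Dcn, Col3a1, Lepr and Pdgfra were dim on all 4 arrays. The summed intensity of the 9 on the linear scale was 1635 and 1488 in Hi, against 1298 and 1910 in Lo. The groups thus overlapped in the sum. Pdgfrb was the brightest of the 9 and weighs most in that sum. It had 9.91 and 9.90 (log2) in Hi, against 9.46 and 10.18 in Lo. Col1a2 had 6.60 and 7.44 in Hi, against 8.23 and 8.69 in Lo. Of the 9 genes 5 differed upward and 4 downward. Of 6 endothelial markers 0 were higher and 2 (Emcn and Stab2) were lower in Hi by the same rule, against the same shares of all genes. Cdh5 was dim on all 4 arrays. The sum of the 6 was 1415 on both Hi arrays, against 2071 and 2032 in Lo. Emcn, also a surface marker of stem cells, was the brightest of the 6 and weighs most in that sum. It had 9.62 and 9.39 (log2) in Hi, against 10.47 and 10.60 in Lo. Pecam1, the next brightest, had 8.88 and 9.28 in Hi, against 8.90 and 8.31 in Lo. Of the 6 genes 3 differed upward and 3 downward.

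**Figure D3:**
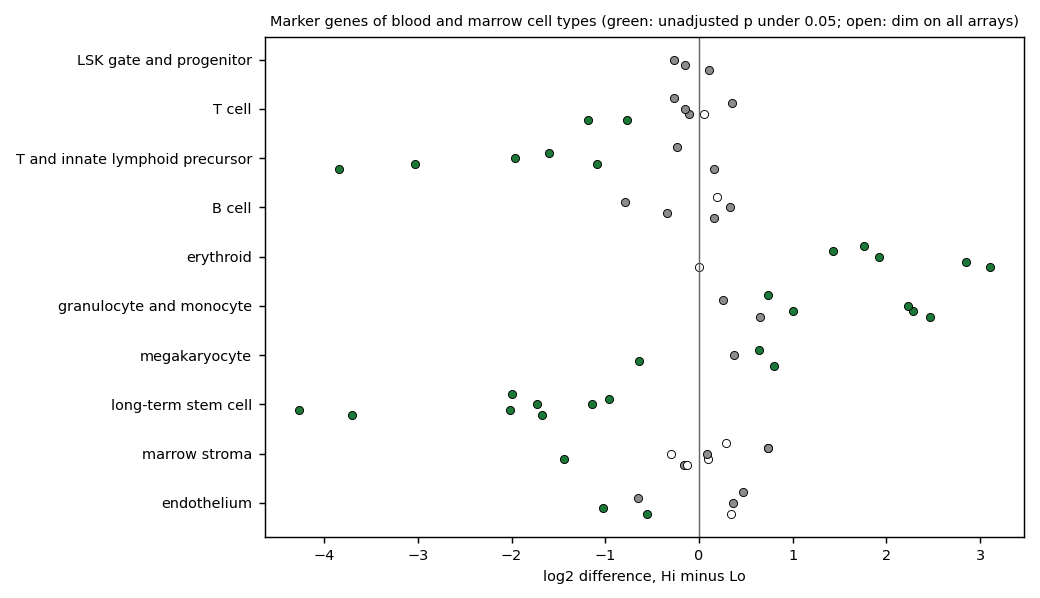
Log2 difference, Hi minus Lo, of each marker gene (points) of the cell types named at left. Green points had an unadjusted p under 0.05 and open points were dim on all 4 arrays: the 8 long-term stem cell markers and 5 of the 7 T and innate lymphoid precursor markers are green and left of 0, while 5 erythroid and 5 granulocyte and monocyte markers are green and right of 0.

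Markers of the blood lineages also differed between the groups. At an unadjusted p under 0.05, 11% of all genes were lower and 9.25% higher. All 8 long-term stem cell markers were lower in Hi at an unadjusted p under 0.05, with sums of 6412 and 6451 in Hi, against 18486 and 17432 in Lo. Of 7 T and innate lymphoid precursor markers 5 were lower (Cd7, Bcl11b, Gata3, Thy1 and Il2rb), with sums of 1395 and 1203 in Hi, against 3838 and 3671 in Lo; Lef1, also on that list, was not. Of 6 erythroid markers 5 were higher, with sums of 12408 and 14529 in Hi, against 2141 and 2953 in Lo. Of 7 granulocyte and monocyte markers 5 were higher, with sums of 49792 and 45484 in Hi, against 18789 and 16918 in Lo. Of 7 mature T cell markers 2 were lower, of 5 B cell markers 0 passed, and of 4 megakaryocyte markers 2 were higher and 1 lower. The part of this shift in the Frizzled and Sfrp1 differences was not tested. In RNA from sorted pools, fewer cells of a type and less RNA per cell cannot be told apart. Of the genes that define the sort, Kit was bright in both groups with a difference of -0.27, and Ly6a, which encodes Sca1, was not analysed here. The progenitor genes Cd34 and Flt3 had differences of 0.11 and -0.15.

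Of the 19 measured genes that act inside the cell, 4 were lower and 0 higher at an unadjusted p under 0.05 (Apc, Jup, Tcf7l1 and Bcl9l). Of all genes 11% were lower and 9.25% higher. Dvl1, Dvl2 and Dvl3, the Dishevelled relay proteins, had differences of 0.25, -0.57 and 0.32. Dvl2 rested on 1 array: it had 9.13 and 9.38 in Hi, against 10.75 and 8.90 in Lo, and without Lo replicate 1 its difference was 0.36.

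In the destruction complex, Apc, the scaffold that brings beta-catenin to its kinases, had 9.20 and 9.15 in Hi, against 9.60 and 9.79 in Lo. The groups were apart, with a difference of -0.52 ± 0.15 (SE) and an adjusted p of 0.203 by limma, and its other 3 probe sets had differences from -0.52 to -0.27. Gsk3a, a kinase of the complex, had 9.82 and 9.72 in Hi, against 9.14 and 9.52 in Lo, a difference of 0.45 ± 0.19 (SE) with an adjusted p of 0.333 by limma, and 0.26 without Lo replicate 1. Axin1 differed by 0.06, while its second probe set differed by 0.37 with the groups apart. The brightest 2 of the 5 probe sets of Csnk1a1 each differed by -0.05, and the brightest by 0.05 after the arrays were shifted to one median. Of the other 3, 1 differed by -0.56 with an unadjusted p under 0.05 and an adjusted p of 0.191 by limma, and the remaining ones by -0.95 and 0.20.

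Axin2 is both a member of the complex and a widely used read-out of canonical signalling. It had 6.44 and 6.24 in Hi, against 6.09 and 4.54 in Lo. The second Lo value was under the dim limit, so Lo was measured on 1 of its 2 arrays. The groups did not overlap, but the gap between them was smaller than the gap between the Lo arrays. Its difference of 1.03 ± 0.57 (SE), with an adjusted p of 0.432 by limma, thus rested in part on a dim value. It was 0.26 when that array was left out, and 1.80 against the dim value alone. The second probe set of Axin2 was dim on all 4 arrays.

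Of the catenins, Ctnnb1, which encodes beta-catenin, had 13.20 and 13.22 in Hi, against 13.35 and 13.22 in Lo. The difference was -0.08 with a 95% interval from -0.46 to 0.30, or 0.01 after the arrays were shifted to one median. Its other 2 probe sets, both above the dim limit, went the other way. They differed by 0.24 with the groups apart and by 0.27 with overlap. These values are of the transcript, and beta-catenin is controlled mainly through the stability of the protein, which was not measured. Jup encodes plakoglobin, the close relative that links cadherins and desmosomes to the skeleton and can also bind TCF/LEF factors (chromosome 11, 100368856 to 100397839). It had 9.46 and 9.77 in Hi, against 10.56 and 10.98 in Lo, with no overlap. The difference was -1.16 ± 0.23 (SE), 2.23-fold lower in Hi, with an adjusted p of 0.137 by limma. Its only probe set is of the kind that can also detect related transcripts.

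Among the TCF/LEF factors, Tcf7l1, known mainly as a repressor, had 6.52 and 6.15 in Hi, against 6.88 and 7.34 in Lo. It differed by -0.78 ± 0.25 (SE) with an adjusted p of 0.237 by limma, and its second probe set differed by -0.90. Tcf7l2, the factor best known from the gut, had 10.19 and 10.14 in Hi, against 11.00 and 10.28 in Lo. The groups were apart by a small margin, and the difference was -0.47, or -0.11 without Lo replicate 1. Lef1, which acts in early lymphoid cells, had 7.89 and 7.34 in Hi, against 7.79 and 7.12 in Lo. Its groups overlapped and the difference of 0.16 changed sign when single arrays were left out.

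Bcl9 and Bcl9l tie beta-catenin to the Pygo proteins. Bcl9l had 7.78 and 7.37 in Hi, against 8.49 and 9.13 in Lo, apart by more than the spread within either group. It differed by -1.24 ± 0.30 (SE), 2.36-fold lower in Hi, with an adjusted p of 0.173 by limma. Its other 2 probe sets, near or under the dim limit, differed by 0.12 and -0.07, and the mean over all of them by -0.40. Bcl9 differed by -0.35, or by -0.07 without Lo replicate 1, and Pygo2 by -0.18. The Groucho genes Tle1, Tle3 and Tle4, whose proteins repress together with TCF/LEF factors, had differences of 0.11, -0.22 and -0.07 on their brightest probe sets. The second probe set of Tle1, also above the dim limit, differed by 0.69 with the groups apart and an adjusted p of 0.339 by limma, and the mean of both by 0.40.

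**Figure D4:**
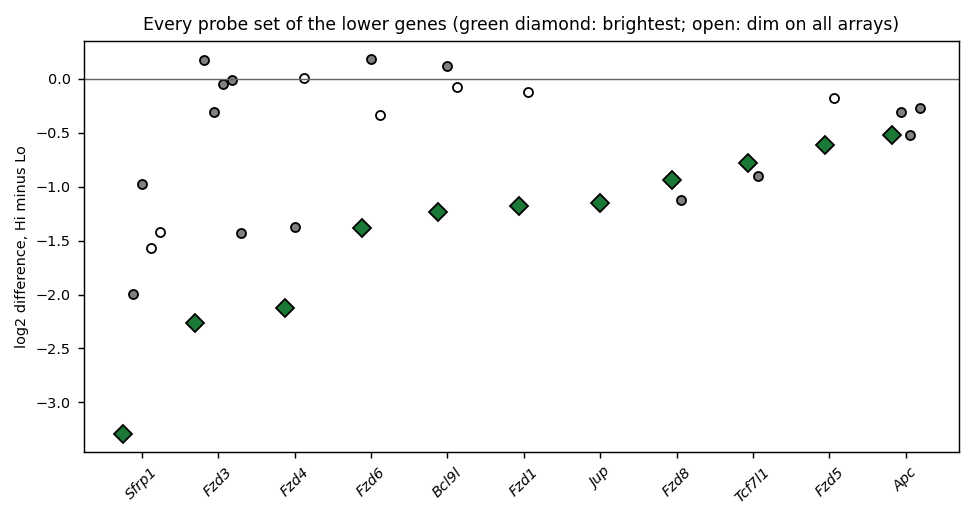
Log2 difference, Hi minus Lo, of every probe set of the 11 genes that were lower at an unadjusted p under 0.05. Green diamonds are the brightest probe sets, grey points the others and open points those dim on all 4 arrays: in Fzd1, Fzd5, Fzd8, Sfrp1, Apc, Jup and Tcf7l1 all probe sets lie below 0, while Fzd3, Fzd4, Fzd6 and Bcl9l also have some above it.

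The choice of probe set mattered for the family. Over all 91 probe sets of the 38 genes, 18 were lower and 2 higher at an unadjusted p under 0.05, against 8.91% and 9.05% of all probe sets, and 20 were dim on all 4 arrays. The 2 higher ones were dimmer probe sets of Dvl1 and Dvl2, at 0.51 and 0.59. In a separate fit to the mean of all probe sets of each gene, limma called Fzd4 lower (difference -1.16, adjusted p = 0.0449), where 1.52% of all genes were called lower and 1.39% higher. In a fit over the brightest probe set of each gene alone, limma called Fzd4 and Sfrp1 lower (adjusted p = 0.0385 and 0.0486), where 1.18% were called lower and 1.04% higher. These fits adjust over fewer features than the fit over all probe sets, in which Fzd4 and Sfrp1 were not called.

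A wider list of 124 other Wnt pathway genes, of which 119 were measured and 31 were dim on all 4 arrays, was read by the same rule. Of the 119 genes 16 were lower and 9 higher in Hi at an unadjusted p under 0.05, against the 11% and 9.25% of all genes, and 0 passed after adjustment by limma. Of the 9 higher genes 3 were dim on all 4 arrays (Sfrp4, Rspo1 and Sp5). The median difference of the 119 was -0.02.

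Of 7 measured receptor and co-receptor genes 3 were lower and 0 higher, against 11% and 9.25% of all genes. The 3 were Ryk, the Dickkopf receptor gene Kremen1 and Ror2, whose protein binds Wnt5a. Ryk, an atypical Wnt receptor related to receptor kinases, had 7.67 and 7.24 in Hi, against 8.55 and 8.54 in Lo. It was 2.13-fold lower, with an adjusted p of 0.126 by limma. Of the 17 other ligand genes 0 had an unadjusted p under 0.05 by limma, and 10 were dim on all 4 arrays. Of 7 R-spondin and Lgr genes 5 were dim on all 4 arrays. The secreted inhibitor gene Sfrp4 had 4.85 and 4.72 in Hi, against 3.97 and 3.93 in Lo, all at or under the dim limit.

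**Figure D5:**
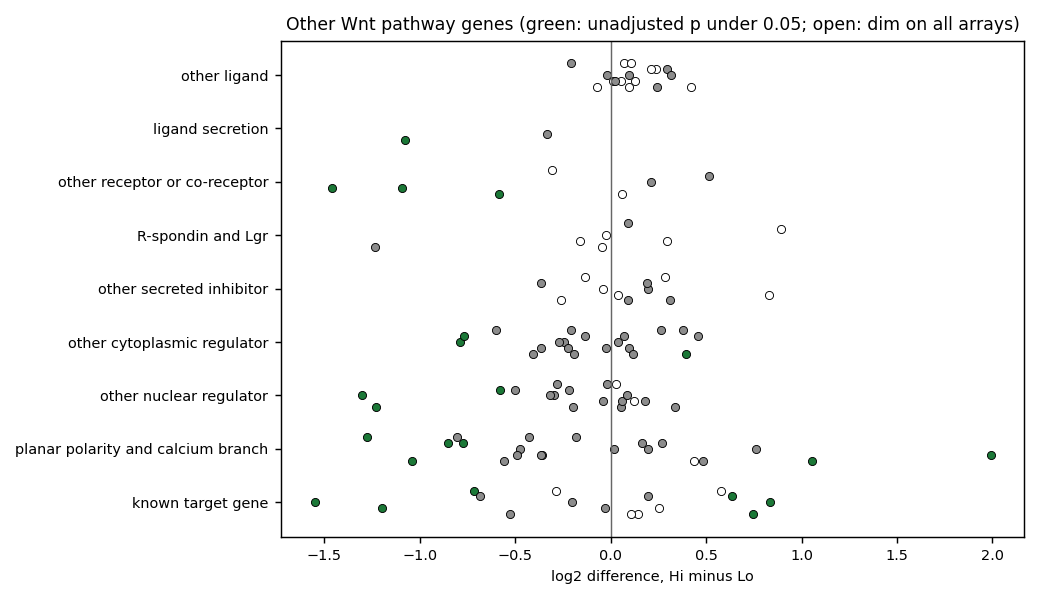
Log2 difference, Hi minus Lo, of 119 further Wnt pathway genes (points) by role, brightest probe set of each. Green points had an unadjusted p under 0.05 and open points were dim on all 4 arrays: the ligands and R-spondins are mostly open, and 16 genes are green to the left of 0.

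The genes of the planar polarity and calcium branches ran both ways, with 4 of 21 lower and 2 higher, against 11% and 9.25% of all genes. Prickle1, a core polarity protein, had 7.88 and 8.17 in Hi, against 9.20 and 9.40 in Lo, 2.43-fold lower with an adjusted p of 0.1 by limma. The calcium-responsive factor gene Nfatc2 had 10.27 and 10.14 in Hi, against 11.22 and 11.27 in Lo, 2.06-fold lower with an adjusted p of 0.0967 by limma. Camk2g, a calcium-dependent kinase, had 9.64 and 9.67 in Hi, against 10.50 and 10.36 in Lo. Plcb1, a phospholipase, had 4.91 and 4.91 in Hi, just above the dim limit, against 5.93 and 5.59 in Lo. All 4 of these genes, picked as lower at an unadjusted p under 0.05, had both Hi arrays below both Lo arrays. Of all genes, not picked in that way, 25.4% did. The 2 higher genes were Celsr2 and Celsr3, cadherins of the polarity system. Celsr2 differed by 1.05, and Celsr3 had 6.03 and 6.07 in Hi, against 4.91 and 3.21 in Lo, the second of these under the dim limit.

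Of 18 other nuclear regulators 3 were lower and 0 higher, against 11% and 9.25% of all genes. Tle6, a Groucho relative, had 7.60 and 7.65 in Hi, against 8.93 and 8.93 in Lo, 2.47-fold lower with an adjusted p of 0.0846 by limma. Of 16 measured genes known elsewhere as Wnt targets, 3 were lower and 4 higher, against the same shares of all genes. The AP-1 gene Jun had 9.89 and 9.95 in Hi, against 11.40 and 11.53 in Lo, and Id2, an inhibitor of E proteins, had 9.04 and 9.22 in Hi, against 10.54 and 10.12 in Lo. Birc5, the survivin gene of mitosis, had 12.87 and 12.74 in Hi, against 12.02 and 12.10 in Lo. Jun and Id2 were thus 2.93-fold and 2.29-fold lower, and Birc5 was 1.68-fold higher. Adjusted p were 0.0839, 0.119 and 0.129 by limma.

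As a sign of RNA quality, the 3′ end probe sets of Gapdh exceeded the 5′ end ones by 0.63 and 0.65 (log2) in Hi, against 0.74 and 0.78 in Lo. Those of Actb did so by 0.60 and 0.55 in Hi, against 0.84 and 0.57 in Lo. The groups were apart for Gapdh and overlapped for Actb. Its part in the differences above was not tested. The Myc transcript had 12.41 and 12.41 in Hi, against 11.70 and 10.64 in Lo, with both Hi arrays above both Lo arrays and an adjusted p of 0.241 by limma.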

How the data were processed

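The authors deposited intensities, 1 for each probe set on each array, that are linear and not logs. The submitters' processing notes name RMA; its version is not given in the sources used here. RMA equalizes the arrays, which hides any difference in RNA content per cell. RNA was amplified from 5 ng with a NuGEN kit, per the labels' protocols, which can distort differences. Intensities ran from 2.96 to 22121.7 and were log2-transformed with no offset. Of 45101 probe sets 64 controls were left out. The platform annotation named 1 gene for 34945 probe sets, and RefSeq (GRCm38.p6) matched 34741 of these by Entrez identifier. Hi minus Lo was fitted with limma 3.58.1 in R 4.3.3 (lmFit, eBayes, two-sided, no block), adjusted by Benjamini-Hochberg over 45037 probe sets, with 2 residual degrees of freedom. The code was tested on simulated data. With 2 arrays a group, an exact permutation test cannot go below p = 0.33, and the number of arrays limits the precision.

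The members and lists were chosen with earlier results of these data known. Each member is given by its brightest probe set. Values on every array are printed for the 16 members with the smallest p and for all ligands, Frizzled receptors and TCF/LEF factors, and the 10 other pathway genes with the smallest p are named. The remaining named genes (Emcn, Stab2, Kremen1, Ror2, Celsr2, Celsr3, Rspo1, Sp5, Lrp6, Znrf3, Dvl2, Ctnnb1, other members, dimmer probe sets and the markers) were picked after their values were seen. The dim limit was also set after the data were seen. The 14 alternatives were other scalings, an offset, a dim filter, other moderation, a replicate block, each array left out, and other summaries of probe sets.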

Additional observations from a re-analysis of the deposited data

How the results depend on the processing

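Fzd1, Fzd3, Fzd4, Fzd5, Fzd6, Fzd8, Sfrp1, Jup, Bcl9l, Tcf7l1 and Apc were lower in Hi under all 14 alternatives. In most of these the direction was fixed in advance. The dim filter, other moderation, the replicate block and the fit over 1 probe set per gene leave the differences unchanged. As both Hi values lay below both Lo values in each gene, neither the offset nor leaving out an array can reverse them. Only the other scalings and the averaging of probe sets could have done so. Fzd4 ran from -2.24 to -1.16, Sfrp1 from -3.68 to -1.85, Fzd3 from -2.65 to -0.65 and Fzd6 from -1.56 to -0.51. The calls over all probe sets were 0, but 1 with the ordinary test, 528 with each gene's probe sets averaged and 404 with 1 probe set per gene; the last 2 adjust over fewer features. Genes of the list lower at an unadjusted p under 0.05 numbered 11 in the main fit. They numbered 6 with the ordinary test (Fzd3, Fzd4, Fzd6, Sfrp1, Apc and Jup) and 9 with a prior variance that follows intensity. After the shift to one median, quantile normalization or cyclic loess they numbered 10, as with the replicate block and with probe sets averaged. Fewer of the 11 passed without Hi replicate 1 and without Hi replicate 2, fits in which Hi rests on 1 array. Fzd3, Fzd4, Fzd6, Sfrp1 and Jup were lower by that rule in each of these settings. The higher ones numbered 0, but 2 after a shift to one median (Lrp5 and Gsk3a), 1 with probe sets averaged (Dvl1) and 0 to 2 with 1 array left out. Genes with both Hi arrays below both Lo arrays numbered 19, but 12 after the shift. With 1 array left out they numbered 19 to 26, since 3 arrays separate more easily. Those with Hi above numbered 4, and 7 to 13 with 1 array left out. Of all 45037 probe sets, 9915 lay below and 13203 above with every array kept. With 1 array left out 14119 to 16205 lay below and 18190 to 19719 above. The shift to one median also moved the split of all probe sets at an unadjusted p under 0.05. It was 5692 higher and 3273 lower with the shift and 4075 higher and 4015 lower without. With the ordinary test 5.44% of all probe sets were lower at that threshold, against 8.91% in the main limma fit.

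The labels do not say whether arrays of the same replicate number were paired. Deviations from the group means correlated at 0.07 between arrays of the same number. Within a group these deviations mirror each other, so this single correlation cannot decide whether the arrays were paired. With the number as a replicate block 10 genes were lower and 0 higher at an unadjusted p under 0.05 (Tcf7l1 was not), and 0 probe sets were called. The counts of genes with Hi below Lo (19) and above (4) use the values alone, so a block cannot change them.

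Some differences that were not called changed sign. The shift to one median moved every difference upward by the same amount, and the cause of the other changes was not tested. After the shift the genes that changed sign were Fzd7 (0.049), Wnt10b (0.090), Csnk1a1 (0.048), Ctnnb1 (0.015) and Tle4 (0.023). With probe sets averaged they were Wnt5a (-0.062), Dvl2 (0.013), Ctnnb1 (0.14) and Tle4 (0.27). Wnt5a was -0.017 after quantile normalization, -0.039 after cyclic loess and -0.0012 with the offset of 16. With 1 array left out the ranges were -0.25 to 0.16 for Fzd7, -0.36 to 0.41 for Wnt5a, -0.33 to 0.33 for Wnt10b, -0.085 to 0.20 for Axin1, -0.13 to 0.034 for Csnk1a1, -0.18 to 0.50 for Lef1, -0.24 to 0.46 for Tle1, -0.72 to 0.12 for Lrp6, -0.044 to 1.56 for Rnf43, -1.49 to 0.36 for Dvl2, -0.19 to 0.74 for Fzd9 and -0.048 to 0.22 for Dkk1. The dim filter removed Wnt5a, Wnt10b, Dkk1 and Sfrp2, which have no value there. With 1 array left out, the difference of 27 of the 38 genes changed sign or moved by over 1.5 times, among them 1 of the 11 lower genes, Fzd1. Values near the dim limit (Fzd2 and Rnf43, Dkk3 and Sfrp1 in Hi, and Axin2 in Lo) are limited by signal over background.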
